A study of Drosophila melanogaster with 12 samples.

Results

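The nuclear genes for the subunits of respiratory complexes II, III, IV and V, with cytochrome c, were examined in the larval fat body of Drosophila melanogaster after knockdown of TFAM. The 36 genes were a listed set: 4 for complex II (succinate dehydrogenase), 9 for complex III (cytochrome bc1), 9 for complex IV (cytochrome c oxidase), 1 for cytochrome c and 13 for complex V (ATP synthase). They were matched by RefSeq accession, because SdhA, SdhB and UQCR-6.4 carried damaged names in the authors' table. They made up 36 of the 17139 genes in that table, and all 36 were among the 9951 tested genes, which averaged 1 TPM or more over the 12 libraries. Fat bodies came from larvae 96 hours after egg laying, in 2 groups of 6 libraries. In the TFAM RNAi group r4-Gal4 drove an RNAi construct against TFAM, and in the control group, labelled r4-Gal4>WT, the same driver was present without the construct. The driver r4-Gal4 directs the yeast activator Gal4 chiefly to fat body cells, so both groups carried Gal4 there. Library titles gave replicate numbers 3 to 8 for TFAM RNAi and 2, 3, 5, 6, 7 and 8 for control.

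Complexes II, III and IV pass electrons from succinate and ubiquinol to oxygen, with cytochrome c as the mobile carrier between complexes III and IV. Complexes III and IV pump protons across the inner mitochondrial membrane, and ATP synthase uses the gradient to make ATP. Complex II is encoded entirely in the nucleus, whereas complexes III, IV and V each combine nuclear subunits with subunits encoded by mitochondrial DNA. TFAM is the protein that packages mitochondrial DNA and promotes its transcription. The fat body is the storage and metabolic organ of the larva, with functions of the vertebrate liver and adipose tissue. The comparison asks how messenger RNA for the nuclear partners differed when the packaging factor of the mitochondrial genome was reduced in this tissue.

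The values are TPM, a transcript abundance that is scaled for length and to a fixed total within each library, and they were summed over the transcripts of each gene. The read depth of the libraries is unknown, since TPM does not preserve it. TFAM itself was at 22.1 to 26.9 TPM in TFAM RNAi libraries and at 78.5 to 101 TPM in control libraries, without overlap. Fat body markers summed to 56981 to 93207 TPM in TFAM RNAi and 39925 to 99476 TPM in control, although Fbp1 was near 0 in both groups. Of these markers 2 separated the groups: Fbp2, a fat body protein, was at 722 to 3829 TPM in TFAM RNAi and 27.5 to 319 TPM in control, and Lsd-1, a lipid droplet protein, at 771 to 833 TPM in TFAM RNAi and 992 to 1936 TPM in control. Of 5 markers of the ring gland, an endocrine organ, only sad, a gene of steroid hormone synthesis, separated the groups, at 0 to 1.74 TPM in TFAM RNAi and 37.7 to 73.6 TPM in control. The other 4 were low and overlapped. Salivary gland markers reached 1026 TPM in TFAM RNAi replicate 3 and stayed between 1.34 and 21.7 TPM in the other TFAM RNAi libraries, against 1.90 to 3.93 TPM in control. Muscle and cuticle markers were highest in control replicate 2, at 2717 and 7335 TPM. The 4 libraries in which such markers of other tissues summed highest were TFAM RNAi replicates 3 and 4 and control replicates 2 and 3. Without them, 18 of the 36 genes described below were called lower, against 17 with them. Of all tested genes, 10.7% were called lower without them and 13.8% with them. Genes called higher numbered 1163 without them and 572 with them. The part of Fbp2, Lsd-1 or sad in these differences was not tested. In bulk tissue, fewer cells of a type and less RNA per cell cannot be told apart. The labels do not state that replicates were separate animals or cultures, and p-values therefore describe only the scatter among these libraries, which may be technical.

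Transcripts for the respiratory subunits were mostly lower in TFAM RNAi fat bodies. By limma on log2(TPM + 1), with Benjamini-Hochberg adjustment over all tested genes and a threshold of 0.05, 17 of the 36 genes fell and 0 rose, against 13.8% of all tested genes called lower and 5.75% called higher. No member was higher even at an unadjusted p under 0.05 by limma, and an exact rank-sum test called 16 lower and 0 higher. The rank-sum test called 13.4% of all tested genes lower. The log2 fold change, which is the TFAM RNAi mean minus the control mean of log2(TPM + 1), was below 0 for 35 of the 36, with a median of −0.20, while the median of all tested genes was 0.01. All TFAM RNAi libraries lay below all control libraries for 13 members, a pattern that 9.76% of tested genes had; the reverse was seen for 0 members and 3.56% of tested genes. The differences were small: after SdhB at −0.82 and COX7A at −0.56, every other called gene lay between −0.39 and −0.20. Of the 19 genes that were not called, 15 had a 95% interval that included 0 and 4 had one that lay below 0.

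**Figure D1:**
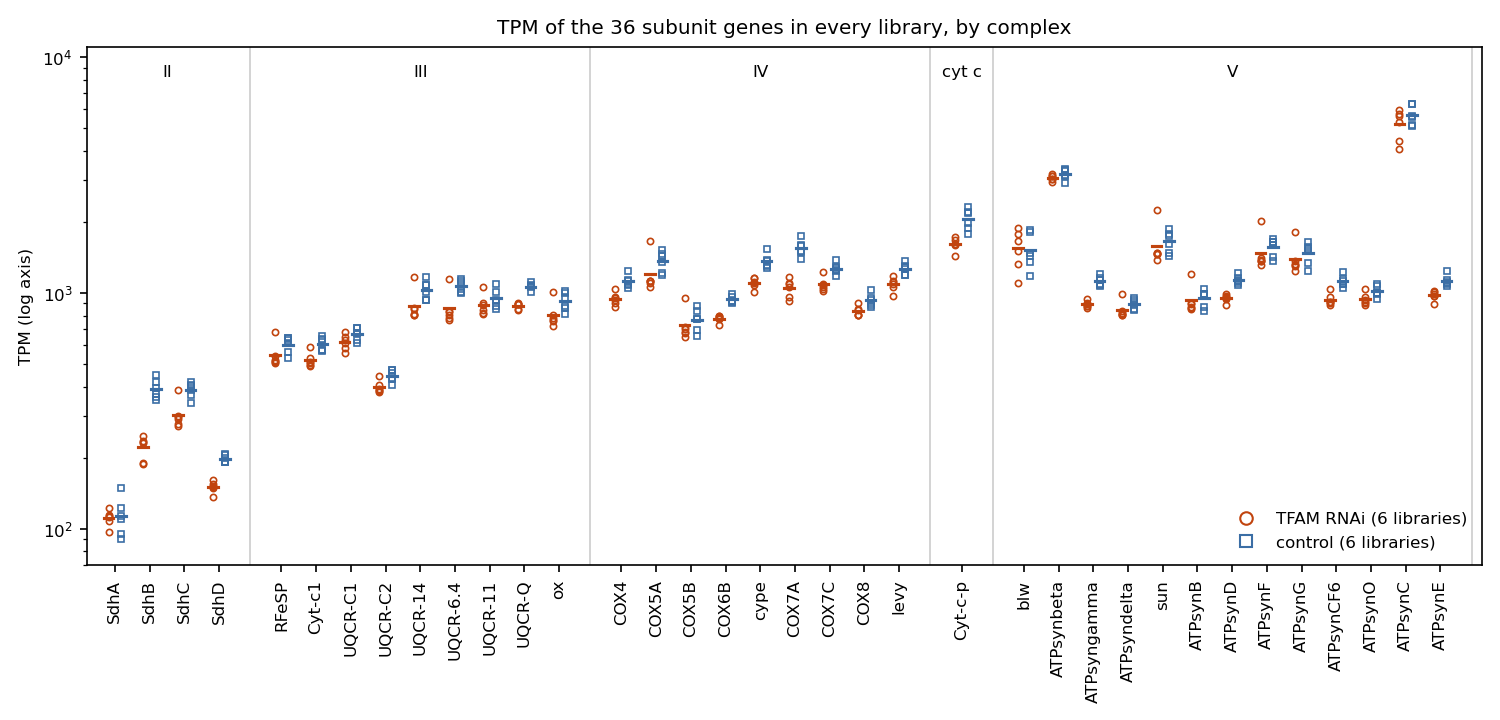
TPM (log axis) of the 36 subunit genes in every library, grouped by complex, with TFAM RNAi libraries as circles left of control libraries as squares and the mean of each group as a bar. SdhB, SdhD, COX7A and ATPsyngamma show no overlap between groups, whereas SdhA, blw and ATPsynbeta overlap almost fully; ATPsynC has the highest level.

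How many genes were called depended on scaling more than the direction did. Under median-ratio scaling, whose factors ran from 0.79 to 1.17 between libraries, 3 members were called lower (SdhB, SdhD and COX7A) at a median log2 fold change of −0.19, against 11.5% of all tested genes. Removing the trend of each library with transcript length also left 3 called lower, at a median of −0.18, against 13.8% of all tested genes. Quantile normalization left 16 called lower, with 32 of 36 below 0 and a median of −0.16, against 10.8% of all tested genes. Without TFAM RNAi replicate 3, 25 members were called lower at a median of −0.25, against 14.2% of all tested genes.

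**Figure D2:**
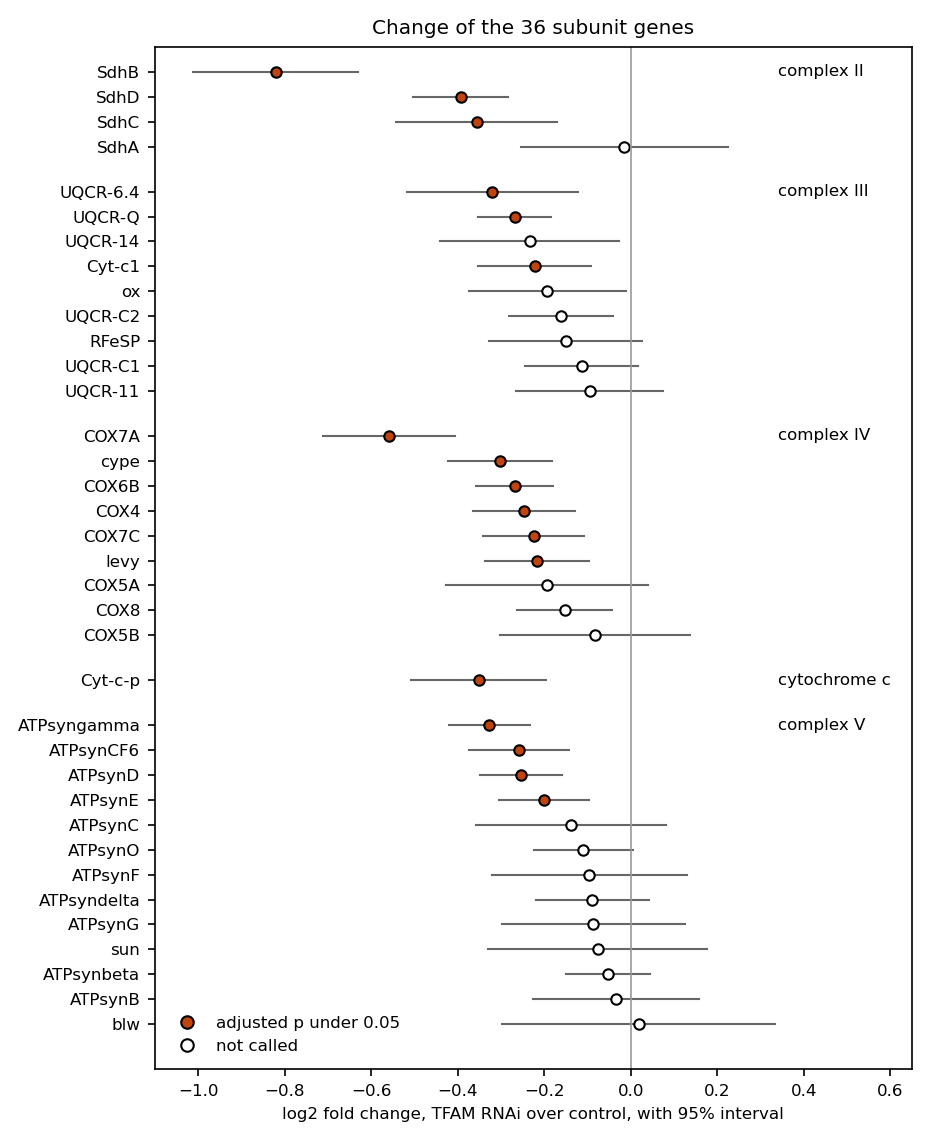
Log2 fold change of each subunit gene, TFAM RNAi relative to control and computed from log2(TPM + 1), with its 95% interval from limma; filled points had an adjusted p under 0.05. SdhB and COX7A lie farthest below 0, and blw is the 1 gene with a value above 0.

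Complex II contained the largest difference of the set and 3 of its 4 genes fell, against 13.8% of all tested genes called lower. SdhB, the iron-sulfur subunit that carries electrons from the flavin towards ubiquinone, ranged from 188 to 248 TPM with a median of 232 in TFAM RNAi, against 351 to 447 TPM with a median of 383 in control. Every TFAM RNAi library was below every control library, and the lowest values were in TFAM RNAi replicates 3 and 8. Its mean was 221 ± 25.6 TPM in TFAM RNAi and 390.0 ± 37.0 TPM in control (SD, n = 6 each), a log2 fold change of −0.82 ± 0.09 (SE; limma adjusted p = 1.95e-05). SdhD, 1 of the 2 membrane anchors that hold heme and the ubiquinone site, ranged from 136 to 161 TPM with a median of 151 in TFAM RNAi, against 191 to 207 TPM with a median of 196 in control. The groups did not overlap, and SdhD fell by 0.39 ± 0.05 on the log2 scale (limma adjusted p = 9.33e-05). SdhC, the other anchor, ranged from 272 to 385 TPM with a median of 294 in TFAM RNAi, against 341 to 420 TPM with a median of 394 in control. The overlap came from TFAM RNAi replicate 3 alone, since the other TFAM RNAi libraries reached only 301 TPM. SdhC fell by 0.36 ± 0.09 on the log2 scale (limma adjusted p = 0.0097).

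SdhA, the flavoprotein that oxidizes succinate, did not follow the other 3. It ranged from 96.6 to 122 TPM with a median of 113 in TFAM RNAi, against 90.5 to 149 TPM with a median of 112 in control, and its log2 fold change of −0.01 had a 95% interval of −0.25 to 0.23; under quantile normalization it was 0.19 and also not called. The ratio of SdhB to SdhA TPM within each library, a pair chosen after the values were seen and therefore not tested, ran from 1.76 to 2.21 in TFAM RNAi and from 2.80 to 3.88 in control. SdhA was also the least abundant of the 36 genes per length. SdhB and SdhD were called lower under every one of 27 per-gene settings, with adjusted p of at most 0.0086 and 0.043 by limma, whereas SdhC was not called under median-ratio scaling (0.21), quantile normalization (0.23) or removal of the length trend (0.12), within a range of 1.08e-04 to 0.23 over the settings.

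In complex III, 3 of 9 genes fell, against 13.8% of all tested genes called lower. UQCR-Q, a small subunit that binds near cytochrome b, had the smallest adjusted p of the complex. It ranged from 847 to 903 TPM with a median of 894 in TFAM RNAi, against 1010.05 to 1111 TPM with a median of 1063 in control, without overlap. UQCR-Q fell by 0.27 ± 0.04 on the log2 scale (limma adjusted p = 2.46e-04). Cyt-c1, the heme protein that hands electrons to cytochrome c, ranged from 490.5 to 589 TPM with a median of 505 in TFAM RNAi, against 563 to 654 TPM with a median of 601 in control. It fell by 0.22 ± 0.06 (limma adjusted p = 0.018). UQCR-6.4, another small accessory subunit, ranged from 766 to 1146 TPM with a median of 820 in TFAM RNAi, against 995 to 1143 TPM with a median of 1069 in control, and fell by 0.32 ± 0.09 (limma adjusted p = 0.025). For both Cyt-c1 and UQCR-6.4 the groups overlapped through TFAM RNAi replicate 3, the highest of its group.

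The other 6 complex III genes were not called. RFeSP, the Rieske iron-sulfur protein of the catalytic core, averaged 544 ± 67.5 TPM in TFAM RNAi and 602 ± 46.9 TPM in control, with a 95% interval of the log2 difference of −0.33 to 0.03. The core proteins UQCR-C1 and UQCR-C2, which form the matrix-facing part of the complex, had log2 differences of −0.11 (interval −0.25 to 0.02) and −0.16 (−0.28 to −0.04). The small subunits UQCR-14, ox and UQCR-11 had log2 differences of −0.23 (−0.44 to −0.03), −0.19 (−0.37 to −0.01) and −0.09 (−0.26 to 0.07). All 9 values of the complex were thus below 0, at a median of −0.19. The count moved with the setting: 7 genes were called lower without TFAM RNAi replicate 3, 1 by the exact rank-sum test, and 0 under median-ratio scaling or with the length trend removed. In that order, these fits called 14.2%, 13.4%, 11.5% and 13.8% of all tested genes lower.

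In complex IV, 6 of 9 genes fell, against 13.8% of all tested genes called lower. COX7A, an accessory subunit at the surface where complexes III and IV meet in supercomplexes, ranged from 923 to 1165 TPM with a median of 1073 in TFAM RNAi, against 1387 to 1740 TPM with a median of 1539.7 in control. Every TFAM RNAi library was below every control library, and the lowest was again TFAM RNAi replicate 3. COX7A averaged 1049.6 ± 90.6 TPM in TFAM RNAi and 1546 ± 121 TPM in control (SD, n = 6 each), 32.1% below control, a log2 fold change of −0.56 ± 0.07 (limma adjusted p = 7.20e-05). It was called lower in all 27 per-gene settings, with log2 fold changes between −0.59 and −0.47 and adjusted p of at most 0.017.

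COX6B, an accessory subunit on the side facing the intermembrane space, ranged from 730 to 797 TPM with a median of 785 in TFAM RNAi, against 906 to 992 TPM with a median of 923 in control. The gene cype, the fly counterpart of COX6C, ranged from 1009 to 1160 TPM with a median of 1102 in TFAM RNAi, against 1269 to 1529 TPM with a median of 1334 in control. COX4, an early-assembling subunit that regulates the enzyme, ranged from 871 to 1037 TPM with a median of 938 in TFAM RNAi, against 1044 to 1233 TPM with a median of 1103 in control. None of these 3 genes overlapped between groups. They fell by 0.27 ± 0.04, 0.30 ± 0.06 and 0.25 ± 0.05 on the log2 scale, with limma adjusted p of 3.57e-04, 0.0015 and 0.0056. Smaller falls were found for COX7C (−0.22 ± 0.05, adjusted p = 0.0095 by limma), a short membrane subunit, and for levy (−0.22 ± 0.06, adjusted p = 0.014 by limma), the fly COX6A, whose loss in flies is known to cause neurodegeneration.

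COX5A, COX5B and COX8 were not called. COX5A, a matrix-side subunit, averaged 1196 ± 225 TPM in TFAM RNAi and 1358 ± 132 TPM in control, with 1652 TPM in TFAM RNAi replicate 3 and 1061 to 1122 TPM in the rest of that group. COX5B, the zinc-binding subunit, had a log2 difference of −0.08 with an interval of −0.30 to 0.14, and COX8, a small membrane subunit, one of −0.15 with an interval of −0.26 to −0.04 and an adjusted p of 0.054 by limma. The ratio of COX7A to COX5B within a library, again a pair chosen after its values were seen, averaged 1.47 ± 0.28 in TFAM RNAi and 2.04 ± 0.36 in control. Without TFAM RNAi replicate 3, 8 of the 9 genes were called lower, and under median-ratio scaling only COX7A was. Those fits called 14.2% and 11.5% of all tested genes lower.

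Cytochrome c of somatic tissue, encoded by Cyt-c-p, ranged from 1426 to 1728 TPM with a median of 1608 in TFAM RNAi, against 1775 to 2307 TPM with a median of 2077 in control. The groups did not overlap, although the highest TFAM RNAi library and the lowest control library were close. Its mean was 1605 ± 101 TPM in TFAM RNAi and 2054 ± 207 TPM in control, and it fell by 0.35 ± 0.07 on the log2 scale (limma adjusted p = 0.0033). It was called in 24 of the 27 settings, but not under median-ratio scaling (adjusted p = 0.14 by limma) or with the length trend removed (0.12), within a range of 3.77e-04 to 0.14 over the settings.

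In complex V, 4 of 13 genes fell, against 13.8% of all tested genes called lower. The catalytic subunits were not among the 4. ATPsyngamma, the rotor shaft that turns inside the catalytic head, ranged from 857 to 941 TPM with a median of 886 in TFAM RNAi, against 1072 to 1194 TPM with a median of 1108 in control. Every TFAM RNAi library lay below every control library, and ATPsyngamma fell by 0.33 ± 0.04 on the log2 scale (limma adjusted p = 1.18e-04). ATPsynD, a subunit of the peripheral stalk, ranged from 883 to 983 TPM with a median of 958 in TFAM RNAi, against 1082 to 1211 TPM with a median of 1120.4 in control. ATPsynCF6, the coupling factor of the same stalk, ranged from 885 to 1041 TPM with a median of 913 in TFAM RNAi, against 1049 to 1220 TPM with a median of 1103 in control. Neither overlapped between groups. ATPsynD fell by 0.25 ± 0.04 (limma adjusted p = 9.34e-04) and ATPsynCF6 by 0.26 ± 0.05 (limma adjusted p = 0.0035). ATPsynE, a membrane subunit that takes part in dimerization, ranged from 895 to 1018 TPM with a median of 981 in TFAM RNAi, against 1070.5 to 1231 TPM with a median of 1104 in control, and fell by 0.20 ± 0.05 (limma adjusted p = 0.0096).

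The c subunit of the membrane rotor ring, ATPsynC, was the most abundant of the 36 transcripts per length. It ranged from 4071 to 5940 TPM with a median of 5442 in TFAM RNAi, against 5096 to 6316 TPM with a median of 5579.7 in control, with a log2 difference of −0.14 and an interval of −0.36 to 0.08. The α and β subunits of the catalytic hexamer, blw and ATPsynbeta, were not called. For blw the log2 difference was 0.02 (interval −0.30 to 0.33), at 1096 to 1877 TPM in TFAM RNAi and 1173 to 1842 TPM in control. ATPsynbeta was the second most abundant, at 3074 ± 86.4 TPM in TFAM RNAi and 3189 ± 159.9 TPM in control, and its interval of −0.15 to 0.05 was the narrowest among the uncalled genes. ATPsyndelta and sun (the ε subunit), also uncalled, had log2 differences of −0.09 (−0.22 to 0.04) and −0.08 (−0.33 to 0.18). The uncalled ATPsynB, ATPsynO, ATPsynF and ATPsynG, subunits of the stalk and membrane part, had log2 differences of −0.03 (−0.23 to 0.16), −0.11 (−0.22 to 0.004), −0.10 (−0.32 to 0.13) and −0.09 (−0.30 to 0.13).

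The ratio of ATPsyngamma to ATPsynbeta TPM within a library ran from 0.283 to 0.302 in TFAM RNAi and from 0.328 to 0.368 in control, without overlap. This pair too was chosen after the values were seen and was not tested. A further pair chosen in that way, Cyt-c-p to Cyt-c1, overlapped between groups. Its ratio ran from 2.71 to 3.39 in TFAM RNAi and from 3.10 to 3.68 in control. Of the 4 calls in complex V none remained under median-ratio scaling or with the length trend removed. Without TFAM RNAi replicate 3, 6 genes of the complex were called lower, against 14.2% of all tested genes.

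Summed over its genes, each complex took a smaller part of the library in TFAM RNAi. Complex II summed to 786 ± 41.9 TPM in TFAM RNAi and 1088 ± 36.5 TPM in control (SD, n = 6 each), 27.8% lower in TFAM RNAi and with no overlap. Complex III summed to 6398 ± 590.0 TPM in TFAM RNAi and 7347 ± 420.5 TPM in control, and the groups overlapped through TFAM RNAi replicate 3 at 7562 TPM. Complex IV summed to 8800 ± 552 TPM in TFAM RNAi and 10539.6 ± 512 TPM in control, without overlap. In percent the difference was smallest for complex V, at 20689 ± 976 TPM in TFAM RNAi and 22388 ± 838 TPM in control, 7.59% lower in TFAM RNAi, with overlapping groups. Together the 36 genes took 3.53 to 4.13% of all TPM in TFAM RNAi libraries and 4.15 to 4.63% in control libraries. These sums weigh abundant transcripts most and carry no test.

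The libraries of a group did not deviate alike. In TFAM RNAi replicate 3, 22 of the 36 genes had their highest and 5 their lowest value of the 6 TFAM RNAi libraries. Its highest values included sun at 2238 TPM, against 1379 to 1480 TPM in the rest of that group. Its lowest values were those of SdhA, SdhB, COX7A, blw and ATPsynC. In TFAM RNAi replicate 8 all 36 genes lay below the mean of the other TFAM RNAi libraries, and 18 had their lowest value of the group there. Among control libraries, replicate 3 held the highest value for 29 of the 36 genes.

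**Figure D3:**
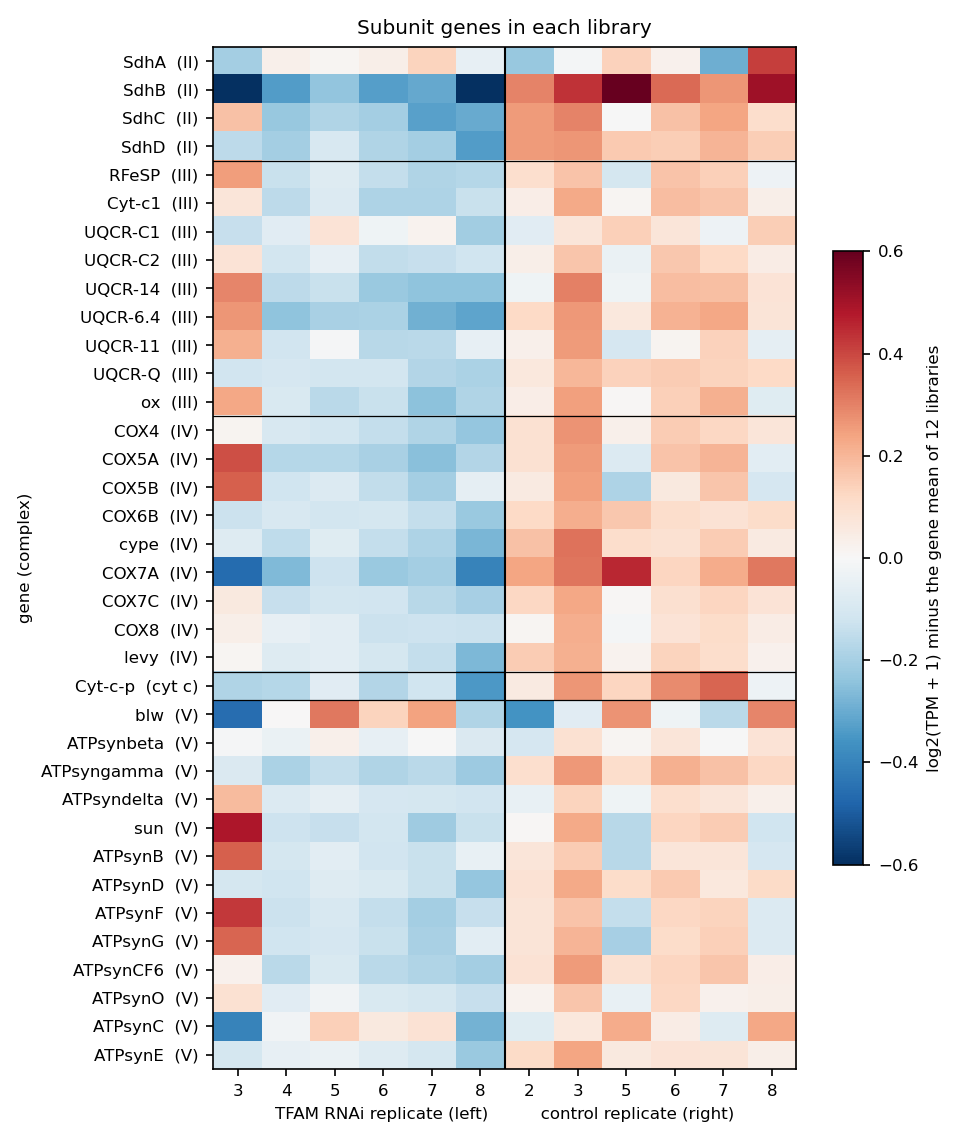
Heat map of log2(TPM + 1) minus the mean of the 12 libraries for each gene (rows, with complex in brackets), TFAM RNAi libraries on the left and control libraries on the right, with colours saturating at 0.6 in either direction. TFAM RNAi replicate 3 has many red cells among blue neighbours, while the SdhB, SdhD and COX7A rows keep blue on the left and red on the right throughout.

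Transcript length moved with these deviations. The subunit transcripts were short: their median lengths ran from 331 bases (ox) to 2663 bases (SdhA), with a median of 681 bases, against 1626 bases for all tested genes. In TFAM RNAi replicate 3, the deviation from the mean of the other TFAM RNAi libraries had a Spearman rho of −0.50 with length across 9938 tested genes and −0.49 across the 36 members. Trends of like size were present in other libraries: over all tested genes rho was 0.46 in control replicate 5, 0.45 in control replicate 8 and 0.43 in TFAM RNAi replicate 7, each against the rest of its group. Over the 36 members it was 0.53 in TFAM RNAi replicate 7, −0.71 in control replicate 3, 0.57 in control replicate 8 and −0.53 in control replicate 7. Genes of a library share its scaling and are not independent. Of the 26 members under 1000 bases, 18 had their highest TFAM RNAi value in TFAM RNAi replicate 3. Of the 10 longer members, 4 had their highest and 4 their lowest TFAM RNAi value there. Between groups, 14 of the 26 shorter members fell, and 3 of the 10 longer ones, SdhB, Cyt-c1 and ATPsyngamma, did. Among all tested genes 13.8% were called lower. Among those under 1000 bases it was 16.8%, at a median log2 fold change of −0.06, while the median of longer genes was 0.03. With the length trend of each library removed, SdhB (−0.78), SdhD (−0.35) and COX7A (−0.55) were the members called lower by limma.

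**Figure D4:**
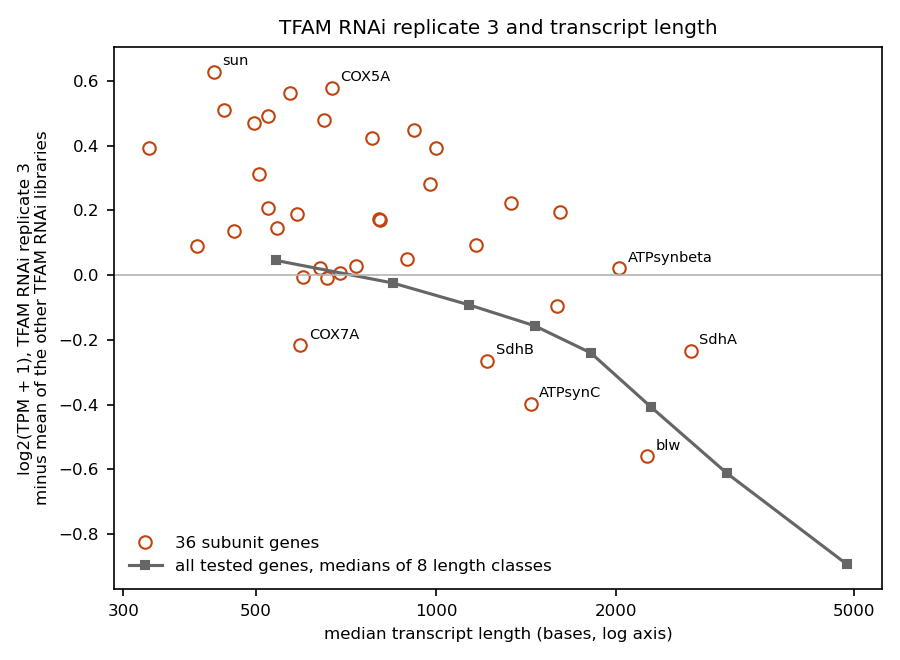
Deviation of TFAM RNAi replicate 3 from the mean of the other TFAM RNAi libraries, in log2(TPM + 1), against median transcript length (log axis); circles are the 36 genes, squares the medians of 8 length classes of all tested genes. Among short transcripts, sun and COX5A lie above 0. Long ones lie on both sides, with blw and SdhA below 0 and ATPsynbeta just above it. COX7A and SdhB lie below the medians for their length.

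At the level of single transcripts, the 36 genes had 92 annotated transcripts in the table, of which 81 were tested. By limma, 26 transcripts of 20 genes fell and 2 rose, against 11.8% of 15248 tested transcripts called lower and 5.47% called higher. SdhB and SdhD have 1 annotated transcript each, and nearly all of COX7A came from its first. The most abundant Cyt-c1 transcript fell more than the gene, by 0.45 on the log2 scale (limma adjusted p = 5.28e-05), and made up 72.7 to 79.9% of the gene in TFAM RNAi and 86.1 to 99.7% in control. The most abundant cype transcript fell by 0.48 (limma adjusted p = 0.0014), while the third made up 16.2 to 18.4% of the gene in TFAM RNAi and 12.4 to 14.1% in control. ATPsynbeta, uncalled as a gene, had a minor transcript at 1.77 to 1.82% of the gene in TFAM RNAi and 2.35 to 2.71% in control, which fell by 0.52 (limma adjusted p = 1.72e-05).

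The 2 transcripts that rose were minor ones. The third of COX5A made up 4.10 to 22.4% of the gene in TFAM RNAi and 1.21 to 5.65% in control (log2 fold change 1.53, limma adjusted p = 0.018). The third of ATPsynCF6 made up 3.27 to 4.76% in TFAM RNAi and 1.45 to 3.12% in control (0.64, limma adjusted p = 0.013). Transcripts of 1 gene share most of their sequence, so these shares rest on how the authors' quantification divided reads among them.

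The authors' deposited table of Wald tests per transcript called fewer. Of 83 member transcripts with a q in the authors' deposited table, 4 had a q under 0.05 and a negative coefficient, those of SdhB (q = 8.89e-07), COX7A (0.0054) and SdhD (0.046) and the minor one of ATPsynbeta (0.0030), where 6.2% of all 21722 transcripts with a q did so. Another 3 had a positive coefficient in the authors' deposited table, the third transcripts of COX5A (q = 0.016), ATPsynCF6 (0.027) and SdhA (0.041), where 3.02% of all did so. The third SdhA transcript was not called by limma (log2 difference 0.56, interval 0.09 to 1.04, adjusted p = 0.11). The authors' deposited table of likelihood ratio tests per gene, which lists the 1561 genes that passed without saying how many were tested, held 2 of the 36, COX7A (q = 0.0047) and SdhB (q = 2.88e-04). SdhB stood in that authors' deposited table under a damaged name that it shared with its paralog SdhBL, so this q may cover both.

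Genes that act on the same complexes were described from lists chosen alongside the subunits. Of 34 listed assembly factors 14 were matched in the table, and 10 of these fell and 1 rose, at a median log2 fold change of −0.41. Of all tested genes 13.8% were called lower and 5.75% higher. The 4 assembly factors with the smallest adjusted p act on complex IV. Cox11, which delivers copper to its catalytic core, had 24.4 to 31.4 TPM in TFAM RNAi and 44.7 to 52.4 TPM in control and fell by 0.81 (limma adjusted p = 4.10e-06). Ccdc56, an early assembly factor, fell by 0.70 (limma adjusted p = 5.33e-06), but had the same values as mtTFB1, so they belong to either gene. Cox10, which makes heme O, fell by 0.54 (limma adjusted p = 3.93e-05), and Scox, a copper chaperone, by 0.44 (limma adjusted p = 5.17e-05). The gene that rose was Bcs1, which inserts the Rieske protein into complex III, at 13.7 to 16.5 TPM in TFAM RNAi and 9.83 to 11.1 TPM in control (0.44, limma adjusted p = 6.97e-04). The count of lower assembly factors was 6 under both median-ratio scaling and quantile normalization, where 11.5% and 10.8% of all tested genes were called lower.

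Of 10 measured genes of coenzyme Q synthesis 4 fell and 1 rose, against 13.8% of all tested genes called lower and 5.75% called higher. Coq7, the hydroxylase, averaged 25.3 ± 1.90 TPM in TFAM RNAi and 32.1 ± 2.20 TPM in control. The methyltransferase genes Coq3 and Coq5 and the polyprenyl synthase gene Pdss2 were the other 3, at log2 fold changes of −0.29, −0.28 and −0.36, with adjusted p of 0.0080, 0.014 and 0.014 by limma. Coq4 rose by 0.34 (limma adjusted p = 0.039), but 0 genes of this list were called higher in 17 of 28 settings, among them each alternative scaling and 8 of the 12 fits without 1 library. Median-ratio scaling left 2 and quantile normalization 1 called lower, against 11.5% and 10.8% of all tested genes. Of 5 carriers 0 were called by limma, with 2 lower at an unadjusted p under 0.05, and 0 were called by the exact rank-sum test. The most abundant, the adenine nucleotide carrier sesB, had a log2 difference of −0.16 (interval −0.30 to −0.02).

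The subunit paralogs are duplicated copies of subunit genes, many of which in flies are expressed mainly in the testis. Of 23 listed, 18 were matched and 17 tested. Of these, 1 rose and 0 fell, against 5.75% of all tested genes called higher and 13.8% called lower. The log2 fold change was above 0 for 16 of the 17 paralogs, at a median of 0.35. UQCR-11L rose by 0.66 (limma adjusted p = 0.031), at 6.87 to 9.77 TPM in TFAM RNAi and 3.15 to 9.33 TPM in control, and it was not called without TFAM RNAi replicate 4, 5, 6 or 8 or control replicate 3, 6 or 8. The exact rank-sum test called 0. Their summed TPM was 121 to 248 in TFAM RNAi and 85.6 to 388 in control. Control replicate 2 had the highest sum of both, 388 TPM of paralogs and 97.0 TPM of gonad markers, and control replicate 6 the lowest paralog sum, 85.6 TPM beside 26.9 TPM of gonad markers. Of the 8 gonad markers 7 had a log2 fold change below 0, at a median of −0.16, and 0 were called. The part of gonad tissue in the paralog values was not tested.

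**Figure D5:**
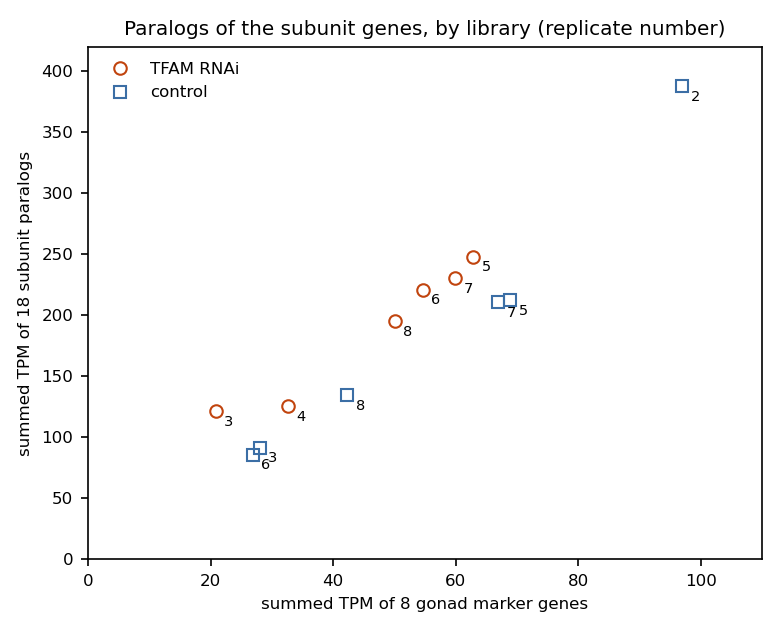
Summed TPM of the 18 subunit paralogs against summed TPM of 8 gonad marker genes in each library, numbered by replicate; circles are TFAM RNAi and squares control. Both sums are low in TFAM RNAi replicates 3 and 4 and control replicates 3 and 6, and highest in control replicate 2.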

How the data were processed

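The authors deposited TPM for 34213 RefSeq transcripts in 12 libraries, each summing to 1000000; the unit comes from the file name and the values. Deposited beside them were p-values and q-values of Wald tests per transcript and likelihood ratio tests per gene, under sleuth's column names; the submitters' processing notes list sleuth. The deposited Wald coefficient is on the natural log scale (regressed on the group difference in natural-log TPM over 1498 transcripts, its slope was 0.999), and the deposited standard error of it was treated as a score. The genome build and the program that made the TPM are not given in the sources used here.

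RefSeq's gene table for fly assembly Release 6 named 99.65% of transcripts by accession, and TPM were summed per gene. Genes averaging 1 TPM or more were tested with limma 3.58.1 under R 4.3.3 (linear model, moderated with a trend, no block, two-sided) on log2(TPM + 1), which understates changes of low genes. Intervals are 95% intervals of this fit. Benjamini-Hochberg adjustment was over all 9951 genes, or all 15248 transcripts. The test was checked on simulated data with 200 changed genes. Transcript lengths came from Ensembl release 115, with a value for 99.9% of tested genes and all 36 members. A lowess curve with a span of 0.3 gave the length trend. Tables were handled in Python 3.11.15 with pandas 2.3.3.

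Alternatives were other pseudocounts, filters, scalings, weights, a replicate block, an exact rank-sum test and the removal of libraries. A replicate block kept only libraries whose replicate number occurred in both groups. The length correction and the combinations that leave out TFAM RNAi replicate 3 were chosen after seeing the data. The members and all gene lists were chosen with earlier results of these data known. Per complex, the range and median over libraries are given for up to 4 called genes with the smallest adjusted p and for the most abundant gene. Of the other lists up to 4 called genes with the smallest adjusted p are named. Those named beyond the rule (genes that rose, sesB, marker genes) were chosen after their values were seen. Sequences and coordinates were not used here.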

Additional observations from a re-analysis of the deposited data

Results flagged for a closer look

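For each gene named from the lists and each marker sum, the highest or lowest library of a group of 6 was set against the other 5 by Dixon's criterion, and 19 of 124 groups had a library that stood apart. Chance marks about 1 in 20 groups, and groups that share a library are not independent. Of these, 14 came from TFAM RNAi replicate 3.

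In that library 22 subunit genes lay above the other 5 TFAM RNAi libraries, and 13 of them stood apart by this criterion. In complexes II and III the genes that stood apart were SdhC (385 TPM), RFeSP (679 TPM), UQCR-14 (1161 TPM), UQCR-6.4 (1146 TPM) and ox (1008 TPM). In complex IV they were COX5A (1652 TPM), COX5B (954 TPM) and COX7C (1220 TPM). In complex V they were ATPsyndelta (989 TPM), sun (2238 TPM), ATPsynB (1199 TPM), ATPsynF (2014 TPM) and ATPsynG (1808 TPM). The same library had 1026 TPM of salivary gland markers, against at most 21.7 TPM in the other 5.

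Control replicate 3 was the highest of its group for ATPsynE (1231 TPM, against 1070.5 to 1130.5 TPM) and for summed gut markers (5412 TPM, against 1019 to 1676 TPM). Control replicate 2 was the highest for the summed markers of muscle (2717 TPM), hemocytes (64.1 TPM) and cuticle (7335 TPM). Without TFAM RNAi replicate 3, 25 of the 36 subunit genes were called lower by limma, against 17 with it. Of all tested genes, 14.2% were called lower without it and 13.8% with it.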

How the results depend on the processing

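The direction held better than the count. Over 27 per-gene settings, the reported one included, 31 members stayed below 0 and 3 (SdhB, SdhD and COX7A) were called lower in every one; SdhA, UQCR-C1, blw, ATPsynB and ATPsynC were called in none. Of the 17 genes called as reported, 3 were also called under median-ratio scaling. Several counts of subunit genes called lower moved by over 1.5 times. Median-ratio scaling gave 3 members (0 in complex III, 1 in IV, 0 in V) and 6 member transcripts, and removal of the length trend gave 3 members (0, 1 and 0). Array weights gave 30 members (8 in complex III, 9 in V), against 20.2% of all tested genes called lower. They gave 4648 called genes, 56.6% of them higher, against 1949 and 29.3% as reported. Under quantile normalization 47.2% of called genes were higher. Without the 4 libraries with most marker TPM from other tissues, 18 members were lower (5 in complex III), against 10.7% of all tested genes. The median of all genes then moved to 0.12 on the log2 scale. The exact rank-sum test gave 1 in complex III. Leaving out 1 library at a time gave 16 to 25 members lower (complex II 3, III 2 to 7, IV 6 to 8, V 4 to 6), 20 to 34 transcripts and 1637 to 2161 called genes, and no member higher. Without TFAM RNAi replicate 3, median-ratio scaling gave 6 members (1, 1 and 1 in complexes III, IV and V) and quantile normalization 7 in complex V. A replicate block without that library gave 8 members (1 in IV, 1 in V). In that order, these fits called 14.2%, 13% and 8.7% of all tested genes lower. The last of them kept only replicates 5 to 8 of each group, the same libraries as the fit without the 4 marker-rich ones. Paralogs called higher numbered 5 without the 4 marker-rich libraries, 6 with array weights and 7 with a replicate block, against 1 as reported. Over all tested genes, 1163 of 9872, 2633 of 9951 and 1318 of 9888 were called higher in those fits, against 572 of 9951 as reported. The block fit left out TFAM RNAi replicate 4 and control replicate 2, whose numbers occur in 1 group only. Coenzyme Q genes called lower ran from 0 (without TFAM RNAi replicate 3, with a block) to 7 (array weights), against 4 as reported, and carriers from 0 to 2 (array weights). Assembly factors called lower ran from 6 to 10. The cause of these moves was not tested.

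With the replicate block, fitted on the 10 libraries whose number occurs in both groups, 15 members were called lower, against 11.8% of all tested genes. This fit left out TFAM RNAi replicate 4 and control replicate 2. Deviations of same-numbered libraries had correlations of 0.313, 0.616, −0.0768, 0.0466 and 0.0348, and 4 of 10 libraries correlated best with their own number. The reported fit did not take the numbers as pairs, and whether equal numbers share a batch was not tested.

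Depth is unknown for TPM, and with 6 libraries a group the 95% intervals of uncalled members leave room for differences such as −0.33 for RFeSP or sun.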
